A study of Mus musculus with 9 samples.

Results

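The 6 libraries of mutant pro-B cultures, 3 from Ts1Rhr mice and 3 from mice that overexpress Hmgn1, were set against the 3 libraries of wild-type littermates. The comparison covered the 10878 of 23279 mouse gene rows whose raw FPKM averaged 1 or more across the 9 libraries, after spike-in and date-named rows were left out. FPKM count sequenced fragments relative to transcript length and to the number mapped in the library. At that limit Plcb4 (1.0003) and Zfp119b (1.0008) lay just inside, and Gm527 (0.99964) and Cldn12 (0.99844) just outside. The question was which genes and functional groups differed from wild type in the mutants as 1 side, since Hmgn1 lies within the segment that Ts1Rhr mice carry in an extra copy.

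Marrow was taken whole from mice 6 to 8 weeks old, lysed of red cells and plated in methylcellulose with interleukin-7, and the pooled colonies were taken after 7 days. An equal number of cells gave the RNA of each sample, and synthetic ERCC spike-in RNA was added to it so that levels could be scaled per cell. The labels place Ts1Rhr on an FVB and C57BL/6 F1 background and the Hmgn1-overexpressing mice, called HMGN1_OE here, on C57BL/6. They give no background for the wild-type littermates, and genotype cannot be told apart from strain in these comparisons. The sources used here do not name the promoter or species of the overexpressed gene. The labels call each library a biological replicate but do not name the animal behind it. The p-values therefore measure only how these libraries spread, and whether that is the spread between animals is not stated.

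Pro-B cells are the bone marrow precursors that rearrange the immunoglobulin heavy chain. They use the recombinase of Rag1 and Rag2, add untemplated bases with the polymerase Dntt, and assemble a surrogate light chain from Vpreb1 and Igll1. In culture they divide in response to interleukin-7, and stromal and myeloid cells of the marrow can persist beside them. Hmgn1 encodes a nucleosome-binding protein of the high mobility group.

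All 30 genes of the pro-B identity list passed the limit on mean FPKM. Other cells were present too. Lyz2, the lysozyme of macrophages and neutrophils, held 2.65% to 5.18% of the summed raw FPKM of a library, and 30 of 33 macrophage and monocyte markers passed the limit. Of 37 stromal and matrix markers 20 passed, and none of the other 17 was at 0 in every library. Of 9 mast cell and basophil markers 0 passed, with 4 at 0 in every library, and the 4 alpha and beta globin genes were at 0 in all 9. Ts1Rhr replicate 3 differed from the other 8 libraries in the X-inactivation transcript Xist (0.493 against 116 to 187 normalised FPKM) and in the Y-linked gene Ddx3y (41.0 against 0.0972 to 0.153).

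Hmgn1 itself stood at 74.8, 71.5 and 46.9 normalised FPKM in wild type, at 127, 122 and 115 in Ts1Rhr and at 76.9, 101 and 75.8 in HMGN1_OE. All 6 mutant libraries thus lay above the 3 wild-type libraries, with HMGN1_OE replicates 1 and 3 close to the highest of them. The pooled log2 difference was 0.68 with a standard error of 0.22 (limma, adjusted p = 0.135), and 0.64 with a standard error of 0.10 on raw FPKM (limma, adjusted p = 0.0282). Hmgn1 was therefore called in 1 of 2 tables only. On raw FPKM the log2 difference was 1.03 in Ts1Rhr (limma, adjusted p = 0.00923) and 0.26 in HMGN1_OE (limma, adjusted p = 0.345). The contrast of the genotypes was 0.76 (limma, adjusted p = 0.173). On normalised FPKM the differences from wild type were 0.94 in Ts1Rhr and 0.41 in HMGN1_OE.

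The deposited spike-in normalised table gave 103 called genes (limma, Benjamini-Hochberg adjusted p under 0.05), of which 82 were higher in the mutants (0.754% of tested genes) and 21 lower (0.193%). The raw table gave 185, of which 99 were higher (0.91%) and 86 lower (0.791%). Both tables called 75 genes, 72.8% of the normalised and 40.5% of the raw calls, with 55 higher and 20 lower. At an unadjusted p under 0.05 there were 2075 genes in the normalised and 3034 in the raw table. Without regard to the test, the 6 mutant libraries all lay above the 3 wild-type libraries for 9.5% of normalised genes and all below for 0.506%, against 6.3% and 5.45% of raw genes. The median gene lay 0.17 (log2) higher in the mutants on normalised FPKM and 0.01 higher on raw FPKM, and 66.3% and 51.4% of genes were higher. Raw FPKM had nearly the same median in every library and hide any shift of the whole transcriptome, so list medians below are given relative to the median of all tested genes.

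The level of the whole transcriptome differed between the sides by less than libraries varied within them. The median log2 normalised FPKM of a library was 3.75 ± 0.22 in the mutants (SD, n = 6) and 3.58 ± 0.17 in wild type (SD, n = 3). The difference of 0.17, with a standard error of 0.14, is a fold of 1.13 (two-sided exact permutation p = 0.31, with 0.0238 the smallest possible). The lowest mutant library, at 3.49, lay within the wild-type range of 3.39 to 3.73. Summarised by the log2 of the summed FPKM, which abundant genes dominate, the difference was -0.18 (exact permutation p = 0.452).

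The number of called genes rested on single libraries. On normalised FPKM it was 454, 148 and 40 when HMGN1_OE replicates 1, 2 and 3 were left out in turn, 39, 26 and 54 for the Ts1Rhr replicates, and 19, 59 and 9 for the WT replicates. On raw FPKM it reached 1104 without HMGN1_OE replicate 2, whose myeloid transcripts were the most abundant of the mutants, and was between 3 and 53 without any other library. The genes called without any single library were Sfrp2, Bgn, Sparc, Lox, Igj, Hmga2 and Fgf13 on normalised FPKM, and Hmga2 and Lox on raw FPKM.

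**Figure D1:**
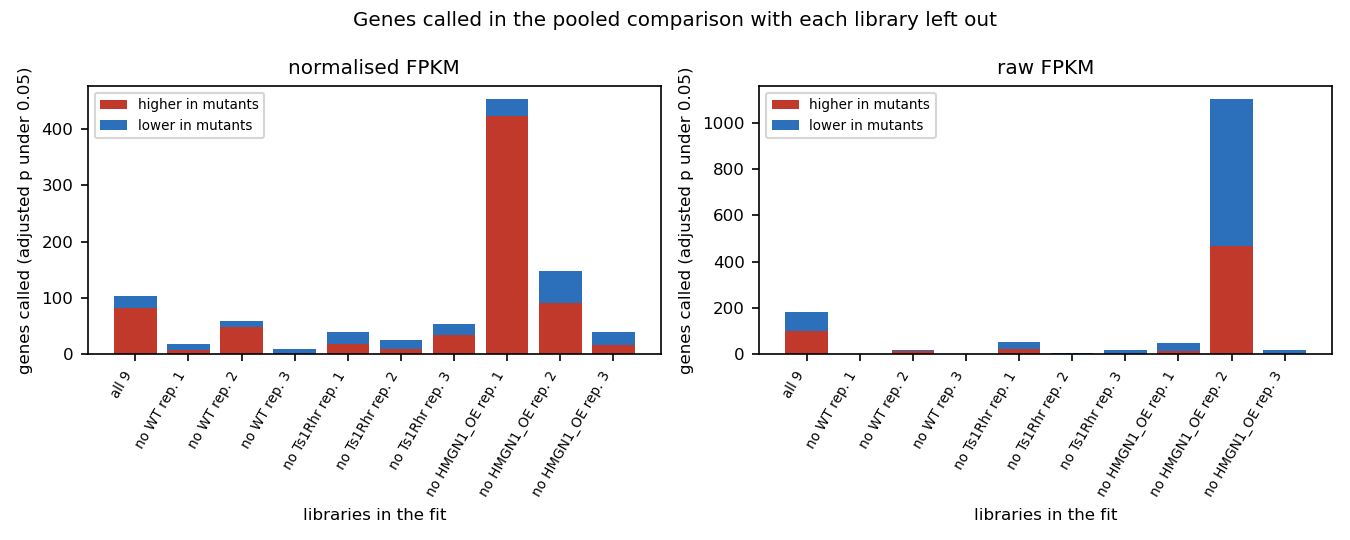
Genes called in the comparison of mutant with wild-type libraries (bars, split into higher and lower; y axis, number of genes at a limma adjusted p under 0.05) with all 9 libraries and with each left out, on normalised and raw FPKM. The count runs from 9 without WT replicate 3 to 454 without HMGN1_OE replicate 1 on normalised FPKM, and from 3 to 1104 on raw FPKM.

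For some genes and lists below, the values or differences of each mutant group stand beside the pooled difference. Both groups use the same 3 wild-type libraries. The direct contrast of Ts1Rhr with HMGN1_OE, which uses no wild-type level, called 0 genes in either table (limma; 475 genes at an unadjusted p under 0.05 on normalised and 963 on raw FPKM). Among the 103 genes called for the pooled difference, 12 had an unadjusted p under 0.05 for that contrast and the smallest adjusted p was 0.675. Their median absolute log2 difference from wild type was 1.35 in Ts1Rhr and 1.05 in HMGN1_OE, and for 78 of the 103 it was larger in Ts1Rhr. In the same fit, 57 of the 103 were also called in Ts1Rhr against wild type and 9 in HMGN1_OE. Of the 185 raw calls these were 182 and 4, and 153 were larger in Ts1Rhr. For 47 of the 185 the contrast had an unadjusted p under 0.05, with 0.173 the smallest adjusted p (limma). A p above the threshold does not show that the genotypes were alike.

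Of the 7 largest falls with a mean of at least 5 normalised FPKM and no overlap between the sides in either table, 4 were in stromal and extracellular matrix genes. Of the 20 tested members 10 fell on normalised FPKM (against 0.193% of all tested genes) and 11 on raw FPKM (0.791%), and 18 lay lower in each table. The list median was -2.35 relative to all genes, with -2.16 in Ts1Rhr and -2.43 in HMGN1_OE. The filter on mean FPKM took in the wild-type libraries, so some members may have passed it only through wild type. The counts and the median of this list are not free of that choice, and with a filter at 5 FPKM the median was -1.15. For 12 members all 6 mutant libraries lay below all 3 wild-type libraries on normalised FPKM (0.506% of all genes), and for 16 on raw FPKM (5.45%).

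Sfrp2, a secreted antagonist of Wnt ligands, stood at 22.9, 29.7 and 21.0 normalised FPKM in wild type. It was at 3.6, 0.427 and 0.774 in Ts1Rhr and at 1.81, 1.29 and 2.69 in HMGN1_OE. Every mutant library was thus far under every wild-type one, and the pooled fold was 0.0577 (log2 -4.12, standard error 0.48; limma, adjusted p = 0.000732). Sparc, a collagen-binding matrix glycoprotein, was at 10.9, 17.5 and 10.4 in wild type and between 1.01 and 3.08 in the mutants, with a median of 1.23. Its fold was 0.120 (log2 -3.06, standard error 0.39; limma, adjusted p = 0.00115), and the groups did not overlap. Bgn, the proteoglycan biglycan, was at 31.6, 39.2 and 22.7 in wild type and between 1.38 and 7.23 in the mutants, with a median of 3.80 (fold 0.110; limma, adjusted p = 0.00204).

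Lox, the enzyme that cross-links collagen and elastin, had the smallest standard error of these 4 genes, 0.26 on the log2 scale. It was at 12.9, 12.2 and 9.20 in wild type and at 2.07, 2.74 and 4.20 as the lowest, median and highest mutant value, a fold of 0.249 (limma, adjusted p = 0.00115). The other called members were the collagen genes Col1a2, Col6a1 and Col6a2, fibronectin (Fn1), the metalloproteinase inhibitor Timp1 and the actin-binding gene Cald1, with log2 differences of -2.89, -3.09, -3.18, -2.52, -2.87 and -2.37. The metalloproteinase inhibitor Timp3 fell on raw FPKM (log2 -2.16; limma, adjusted p = 0.0322) and not on normalised FPKM (log2 -1.86; limma, adjusted p = 0.053). Igfbp4 and Tagln were the 2 members with higher means in the mutants, at log2 0.39 and 0.64, and neither was called.

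Fewer stromal cells and less matrix RNA per cell cannot be told apart in bulk RNA. Between 4 and 13 members fell on normalised FPKM when 1 library was left out. The 4 were without WT replicate 3, where 8 of all 10878 genes fell, and the 13 without HMGN1_OE replicate 2, where 57 fell. On raw FPKM the number was 1 without WT replicate 3 and 2 without WT replicate 1, where 3 of all genes fell in each fit. It was 4 without WT replicate 2 or Ts1Rhr replicate 2 (7 of all genes in each), and 5 without Ts1Rhr replicate 3 (15 of all genes). The list median relative to all genes lay between -2.67 and -2.23 on normalised FPKM with 1 library left out, at -1.48 with a pseudocount of 1 and at -1.15 with a filter at 5 FPKM. Some called genes outside the list, chosen after their values were seen, also belong to the matrix: Aebp1 stood at 3.53 ± 1.22 (SD, n = 3) against 0.545 ± 0.150 (n = 6) and Ltbp2, a latent TGF-beta binding protein, at 3.31 ± 0.530 against 0.573 ± 0.240. With mutant means under 1 FPKM, both may have passed the filter on mean FPKM only through wild type, and they add no separate support.

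**Figure D2:**
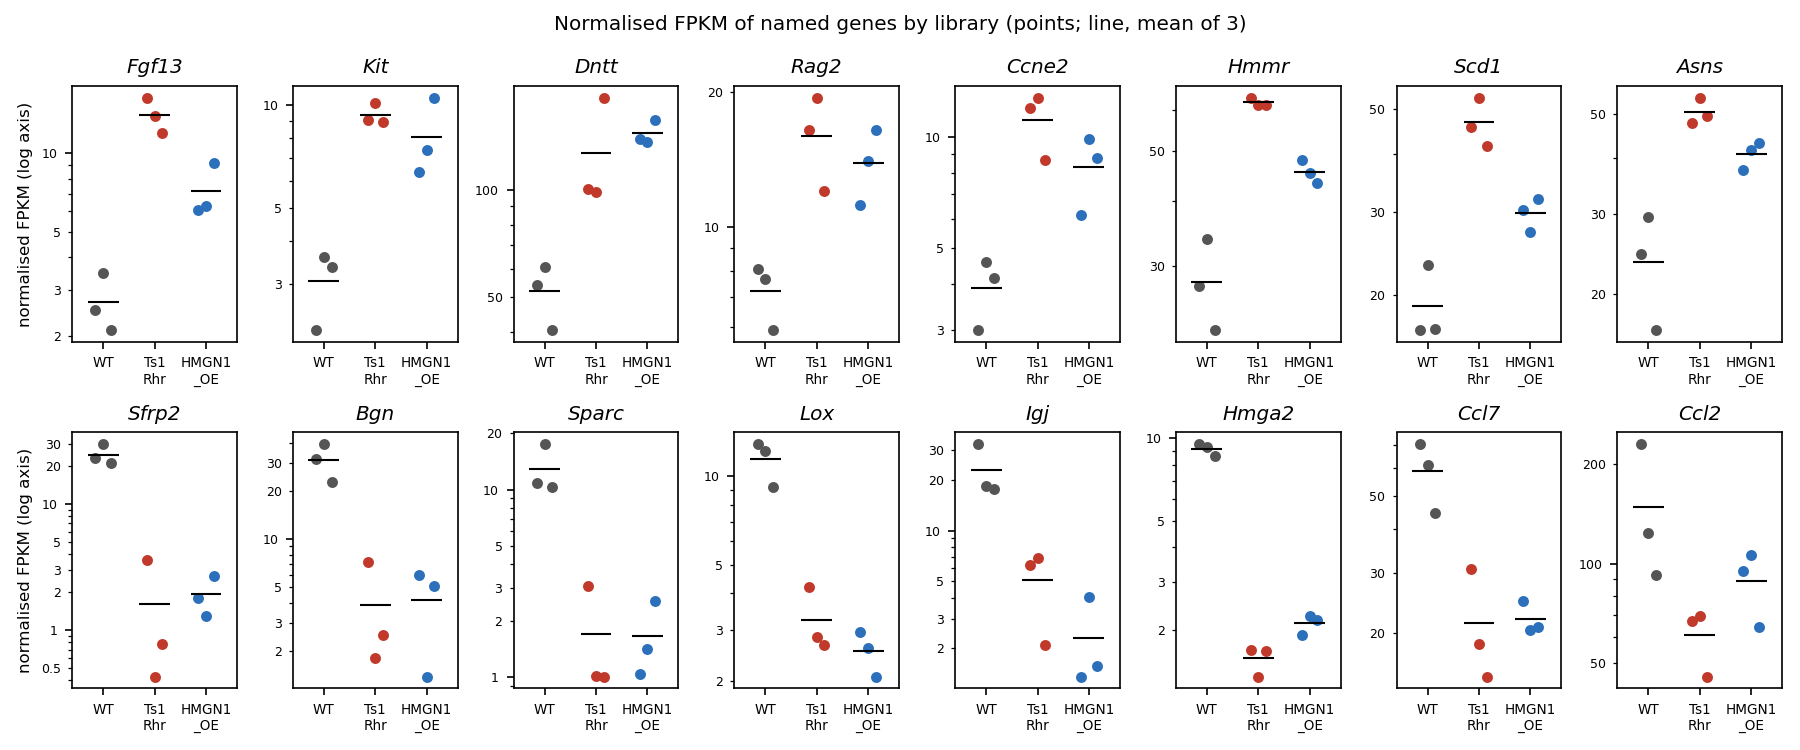
Normalised FPKM of 16 genes (y axis, log scale) in each library (points) of wild type (WT), Ts1Rhr and HMGN1_OE, with the mean of 3 as a line. In the upper row the wild-type points lie under all mutant points, and in the lower row above them, except for Ccl2, where HMGN1_OE overlaps wild type.

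Transcripts of macrophages and neutrophils lay lower in the mutants without passing the test on normalised FPKM. All 30 tested macrophage and monocyte genes were lower, 0 were called (limma; 1 on raw FPKM, a call lost without any 1 library other than HMGN1_OE replicate 2), and their median was -0.93 relative to all genes, with -1.16 in Ts1Rhr and -0.62 in HMGN1_OE. The summed level of these genes ran from 27280 to 87670 normalised FPKM in wild type and from 17220 to 61340 in the mutants. The libraries did not separate by side: HMGN1_OE replicate 2 lay below all wild-type libraries for 0 of the 30 genes, and Ts1Rhr replicate 3 for all 30. The other 4 mutant libraries did so for 17 to 28. Csf1r, the receptor for macrophage colony-stimulating factor, was at 292, 187 and 146 in wild type and from 57.5 to 270 in the mutants, with a median of 105.

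Without HMGN1_OE replicate 2, 20 of the 30 macrophage genes fell on raw FPKM and 1 did on normalised FPKM. In those fits 636 and 57 of all 10878 tested genes fell. All 12 tested neutrophil granule genes were lower too, with 0 called (limma) and a median of -0.89 relative to all genes. Of 48 tested lysosomal genes 45 were lower, and the median lay at -0.73. The lysosomal enzymes Hexa and Gla fell on raw FPKM alone (log2 -0.87 and -0.81; limma, adjusted p = 0.0471 and 0.0322), where 26 members fell without HMGN1_OE replicate 2, 1 without Ts1Rhr replicate 1 and 0 without any 1 of the other libraries.

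Chemokines that myeloid and stromal cells secrete lay lower as well. Of 10 tested members 9 were lower, the median lay at -0.87 against all genes, and 1 fell on normalised and 3 on raw FPKM (0.193% and 0.791% of all genes). The raw count was 5 without HMGN1_OE replicate 2, 2 without HMGN1_OE replicate 1, 1 without HMGN1_OE replicate 3, Ts1Rhr replicate 1 or Ts1Rhr replicate 3, and 0 without Ts1Rhr replicate 2 or any 1 wild-type library. Without HMGN1_OE replicate 2, 636 of all 10878 genes fell on raw FPKM. Ccl7, a ligand that draws monocytes, was at 70.5, 61.4 and 44.7 normalised FPKM in wild type and between 15 and 30.8 in the mutants, with a median of 20.6. The groups did not overlap and the fold was 0.367 (log2 -1.45, standard error 0.24; limma, adjusted p = 0.011). The call was lost without WT replicate 1. Ccl2, the related monocyte ligand, stood at 177, 116 and 117 raw FPKM in wild type and between 50.1 and 94.9 in the mutants (log2 -0.96; limma, adjusted p = 0.0444). Ccl3 fell on raw FPKM too (log2 -0.96; limma, adjusted p = 0.0394), while on normalised FPKM both missed the threshold (limma, adjusted p = 0.109 and 0.111).

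Igj, the joining chain of secreted immunoglobulin, was the called member of the 14 tested later B and plasma cell genes. It was at 32.7, 18.4 and 17.7 normalised FPKM in wild type, at 6.30, 6.86 and 2.11 in Ts1Rhr and at 1.36, 4.03 and 1.57 in HMGN1_OE. All mutant libraries were lower, and the fold was 0.138 (log2 -2.86, standard error 0.39; limma, adjusted p = 0.00204). The list as a whole had 10 of 14 members lower and a median of -0.29 relative to all genes. The plasma cell regulator Prdm1 stood at log2 -0.57 and was not called (limma, adjusted p = 0.36).

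Akr1b8, an aldo-keto reductase gene in none of the lists, was at 12.3, 10.6 and 9.63 in wild type and between 1.47 and 7.84 in the mutants, with HMGN1_OE replicate 2 the highest (fold 0.275; limma, adjusted p = 0.0315). Rpl26, which encodes part of the large ribosomal subunit, was called lower with 0.0995 to 0.130 normalised FPKM in 4 mutant libraries and 10.1 and 25.4 in Ts1Rhr replicates 1 and 2, against 11.5 to 20.5 in wild type. The raw table lists it at 0.01 in these 4 libraries, which may be an estimate that failed, and the gene is described only as listed at that value. It was the only called member of the 79 tested cytosolic ribosomal protein genes, whose median relative to all genes was -0.13 on normalised and 0.06 on raw FPKM. Among 57 tested small RNA rows, Snord17 was called higher and Snora74a lower, with 0.122 to 34.2 and 0.0906 to 7.02 normalised FPKM in the mutants. The raw table lists Snord17 at 0 in all wild-type libraries and in HMGN1_OE replicate 2, and Snora74a at 0 in every mutant library but HMGN1_OE replicate 3.

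Genes of DNA replication lay higher in the mutants, with few of them passing. All 49 tested members were higher on normalised FPKM and 48 on raw FPKM, and their median was 0.47 relative to all genes, with 0.50 in Ts1Rhr and 0.42 in HMGN1_OE. On normalised FPKM 4 rose (against 0.754% of all genes) and on raw FPKM 7, namely Cdc6, Pola1, Rfc3, Fen1, Ccne2, Rrm1 and Dut. The 6 mutant libraries lay above all wild-type libraries for 25 of the 49, against 9.5% of all genes.

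Ccne2, the cyclin that drives entry into S phase, was at 2.99, 4.57 and 4.15 normalised FPKM in wild type, at 12, 12.8 and 8.68 in Ts1Rhr and at 6.15, 9.87 and 8.79 in HMGN1_OE. No mutant library reached down to wild type, and the fold was 2.46 (log2 1.30, standard error 0.24; limma, adjusted p = 0.0202). Rfc3, a subunit of the clamp loader, stood at 22.0, 23.4 and 13.2 against a mutant range of 28.4 to 49.8 with a median of 39.4 (fold 2.02; limma, adjusted p = 0.041). Pola1, the catalytic subunit of the polymerase that primes DNA synthesis, was at 14.9, 19.1 and 15.2 against 23.1 to 40.2 with a median of 28.7 (fold 1.86; limma, adjusted p = 0.0467). For all 3 genes the Ts1Rhr median was the higher of the genotypes. Chaf1b, which encodes part of chromatin assembly factor 1 and lies in the triplicated segment, rose 1.92-fold (limma, adjusted p = 0.0386).

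Genes of mitosis were higher as well. All 56 tested members were higher in both tables, 5 rose on normalised and 10 on raw FPKM (0.754% and 0.91% of all genes), and the median was 0.52 relative to all genes, with 0.58 in Ts1Rhr and 0.45 in HMGN1_OE. For 31 members the 6 mutant libraries lay above all wild-type libraries on normalised FPKM, against 9.5% of all genes. Ska1, which couples kinetochores to microtubules, was at 1.96, 3.43 and 2.10 in wild type and between 4.29 and 9.80 in the mutants, with a median of 6.47 (fold 2.72; limma, adjusted p = 0.0315). Hmmr, a spindle-associated hyaluronan receptor, was at 27.5, 33.8 and 22.6 in wild type, at 63.3, 61.2 and 61.4 in Ts1Rhr and at 48.1, 45.3 and 43.3 in HMGN1_OE (fold 1.92; limma, adjusted p = 0.0374). The 3 groups formed 3 separate bands for Hmmr on normalised FPKM, while on raw FPKM HMGN1_OE replicate 2 (32.6) lay just under WT replicate 2 (32.8). The kinetochore genes Ndc80 and Cenpk and the kinesin gene Kif20b rose 1.95-fold, 1.78-fold and 1.79-fold (limma, adjusted p = 0.0496, 0.0492 and 0.0496), close to the threshold.

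The promoters of these groups are shown because different short words recur in them. RefSeq promoters (GRCm38.p6, 250 bases before to 50 after the start of a gene) were matched for 8166 of the tested genes and searched on both strands. Each gene was counted once, with a match in any of its promoters. Any of the 4 E2F words TTTCCCGC, TTTCGCGC, TTTGCCGC and TTTGGCGC was found for 14 of 40 DNA replication genes (35.0%), for 11.4% of mitosis genes and for 4.95% of all. E2F factors are the regulators of S-phase genes. The CHR word TTTGAA, the cell cycle homology region of late cell cycle genes, was found for 32 of 44 mitosis genes (72.7%), for 17.5% of DNA replication genes and for 14.2% of all. A match describes letters in this window and shows no binding. The words stand in capitals below, for Pola1 (chrX:93632156-93632305, minus strand) and Rfc3 (chr5:151651209-151651358, minus strand) over the 150 bases before the start, and for Hmmr (chr11:40733412-40733441, minus strand), Kif20b (chr19:34922353-34922382, plus strand) and Ndc80 (chr17:71526811-71526840, minus strand) over 30 bases around the match. The files use another build, mm9, so these positions belong to the RefSeq table alone.
Pola1: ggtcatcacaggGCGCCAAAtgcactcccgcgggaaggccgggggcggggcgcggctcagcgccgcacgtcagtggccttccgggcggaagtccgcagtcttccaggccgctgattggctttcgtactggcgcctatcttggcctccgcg
Rfc3: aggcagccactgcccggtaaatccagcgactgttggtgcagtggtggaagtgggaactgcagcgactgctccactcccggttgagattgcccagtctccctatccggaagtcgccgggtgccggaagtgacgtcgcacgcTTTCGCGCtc
Hmmr: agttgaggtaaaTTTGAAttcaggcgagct
Kif20b: gagccgccattgTTTGAATTTGAAaaccgg
Ndc80: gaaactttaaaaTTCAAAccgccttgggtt
In Pola1 the E2F word reads on the opposite strand, 138 bases before the start, and in Rfc3 it lies 10 bases before the start. Kif20b holds 2 CHR words end to end, and in Ndc80 the word again reads on the opposite strand. The CHR words lie after the start, by 8 bases in Hmmr, 7 for the first word in Kif20b and 29 in Ndc80. The CHR word was also found for 33.3% of the matched genes of the macrophage list and for 24.2% of those of the lysosome list. Both lists lay lower. It was found for 30.5% of the 59 matched genes called higher on normalised FPKM.

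On normalised FPKM repair genes of the homologous recombination and Fanconi pathways had the highest pooled median of the lists of 10 or more tested genes. It was 0.64 relative to all genes, with 0.71 in Ts1Rhr and 0.44 in HMGN1_OE, where mitosis lay at 0.45. On raw FPKM the repair and mitosis lists both lay at 0.60. All 31 tested members were higher on normalised FPKM and 29 on raw FPKM. The nuclease gene Exo1 was at 4.98, 7.03 and 5.12 in wild type against 8.11 to 14.7 in the mutants (fold 2.04; limma, adjusted p = 0.0463). Chek1, the checkpoint kinase of stalled replication, was at 9.27, 13.1 and 8.32 against 15.7 to 23.9 (fold 1.96; limma, adjusted p = 0.0476). Neither gene's sides overlapped on normalised FPKM. On raw FPKM Chek1 was at 12.8 in HMGN1_OE replicate 2 against 13.4 in WT replicate 2 and was not called (limma, adjusted p = 0.056). On raw FPKM Exo1 and the mismatch repair gene Msh6 rose.

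The next 5 called genes stand in none of the lists and were picked after their values were seen. The kinesin genes Kifc1 and Kif18b rose 1.90-fold and 1.89-fold, the checkpoint mediator Clspn 1.81-fold, and the kinetochore genes Cenpn and Knstrn 2.19-fold and 1.84-fold (limma, adjusted p from 0.0386 to 0.0496). Apitd1, a histone-fold protein of kinetochores that also binds Fanconi proteins, was at 2.68, 6.18 and 4.61 in wild type and between 7.30 and 15.2 in the mutants (fold 2.46; limma, adjusted p = 0.0394).

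The calls of the replication, mitosis and repair lists depended on single libraries. With 1 library left out, at least 46 of 49, 55 of 56 and 30 of 31 members were still higher on normalised FPKM. The called members numbered 12, 22 and 15 without HMGN1_OE replicate 1, beside 423 of all 10878 genes called higher. For replication there was 1 without HMGN1_OE replicate 3, Ts1Rhr replicate 1, Ts1Rhr replicate 3 or WT replicate 2, and 0 without Ts1Rhr replicate 2, WT replicate 1 or WT replicate 3. For mitosis there was 1 without Ts1Rhr replicate 3 or WT replicate 2, and 0 without HMGN1_OE replicate 3, Ts1Rhr replicate 1, Ts1Rhr replicate 2, WT replicate 1 or WT replicate 3. For repair there was 1 without HMGN1_OE replicate 2 and 0 without HMGN1_OE replicate 3, Ts1Rhr replicate 1, Ts1Rhr replicate 2 or any wild-type replicate. On raw FPKM the called members numbered 23, 30 and 6 without HMGN1_OE replicate 2, beside 468 of all 10878 genes called higher. With any other library left out, the raw calls fell to between 0 and 2 for replication, to 0 or 1 for mitosis and to 0 for repair.

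**Figure D3:**
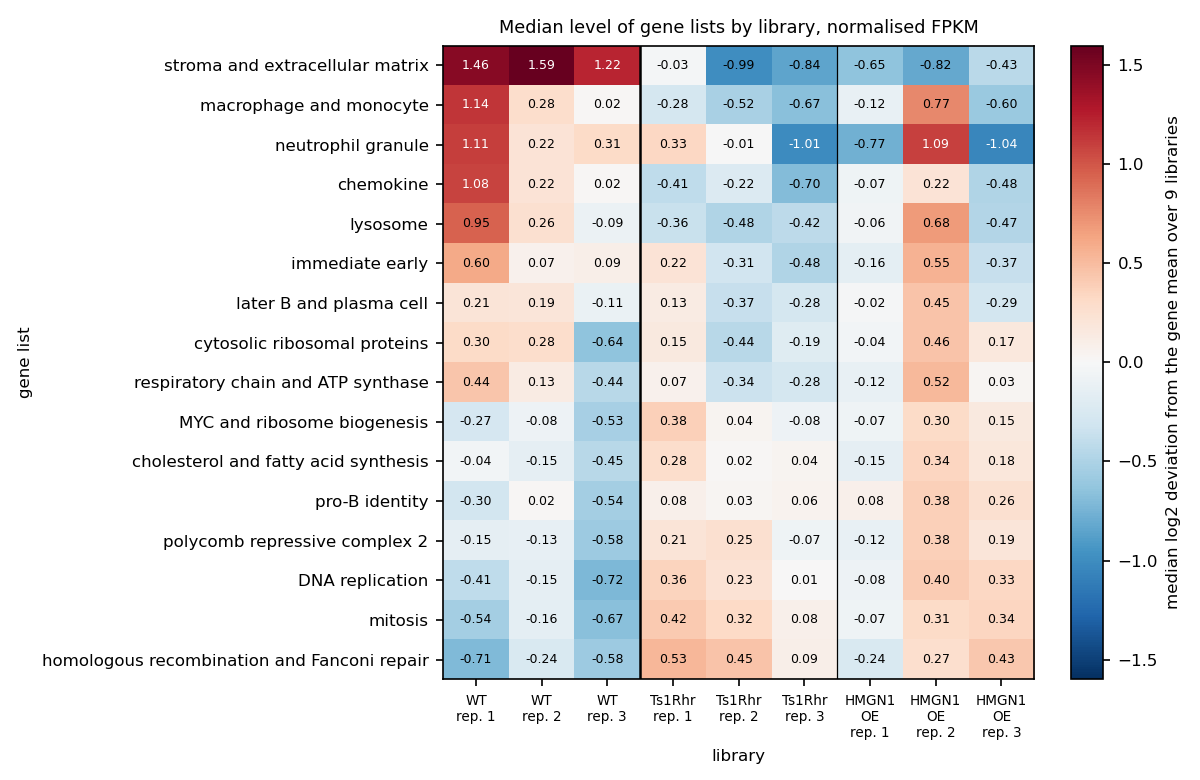
Median log2 deviation of the genes of 16 lists (rows) from each gene's mean over the 9 libraries (columns), on normalised FPKM, in red above and blue below 0. Stroma stands at 1.22 to 1.59 in wild type and at -0.03 or lower in every mutant library, mitosis at -0.67 to -0.16 in wild type and -0.07 to 0.42 in the mutants, and the macrophage list is high in WT replicate 1 (1.14) and HMGN1_OE replicate 2 (0.77).

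Genes of B cell progenitor identity were higher on balance, and 3 of 30 members rose on normalised and 4 on raw FPKM (0.754% and 0.91% of all genes). Of the 30, 27 were higher, 13 lay above wild type in all 6 mutant libraries (9.5% of all genes), and the median was 0.27 relative to all genes, with 0.29 in Ts1Rhr and 0.31 in HMGN1_OE. Dntt, the untemplated polymerase of V(D)J joining, was at 54.3, 61.0 and 40.4 in wild type, at 101, 98.6 and 182 in Ts1Rhr and at 139, 137 and 157 in HMGN1_OE. Every mutant library was above every wild-type one, and the fold was 2.59 (log2 1.37, standard error 0.25; limma, adjusted p = 0.0163). Rag2 was at 8.09, 7.67 and 5.90 in wild type and between 11.2 and 19.4 in the mutants, with a median of 15.2 (fold 2.04; limma, adjusted p = 0.0386). Its partner Rag1 lay at log2 0.21 and was not called (limma, adjusted p = 0.55).

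Lef1, a transcription factor of the Wnt pathway that pro-B cells express, was at 86.8, 96.8 and 81.3 in wild type and between 145 and 203 in the mutants (fold 1.99; limma, adjusted p = 0.041). Igll1, of the surrogate light chain, rose on raw FPKM (log2 0.92; limma, adjusted p = 0.0414) and on normalised FPKM reached log2 0.96 without passing (limma, adjusted p = 0.0774). The lineage factors Ebf1 and Pax5 stood at log2 0.72 and 0.50 (limma, adjusted p = 0.111 and 0.243), and Il7r, the receptor for the cytokine of the medium, at -0.30 (limma, adjusted p = 0.536). The raw count went from 4 to 8 without HMGN1_OE replicate 2, to 2 without Ts1Rhr replicate 1, to 1 without Ts1Rhr replicate 3 or WT replicate 2, and to 0 without any 1 of the other 5 libraries. Of all 10878 genes, 468 rose on raw FPKM without HMGN1_OE replicate 2, and 423 rose on normalised FPKM without HMGN1_OE replicate 1. With 1 library left out the called members on normalised FPKM were 5 without HMGN1_OE replicate 1, 3 without HMGN1_OE replicate 2, 2 without Ts1Rhr replicate 3, 0 without WT replicate 3 and 1 without any of the others.

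Among early progenitor genes, 2 of 17 tested members rose, against 0.754% of all genes. The list as a whole lay near the other genes, with 11 of 17 higher and a median of 0.13 relative to all genes. Kit, the receptor for stem cell factor, was at 2.20, 3.6 and 3.37 in wild type, at 9.03, 10.1 and 8.93 in Ts1Rhr and at 6.36, 7.36 and 10.5 in HMGN1_OE. The sides did not overlap and the fold was 2.87 (log2 1.52, standard error 0.24; limma, adjusted p = 0.00804). Erg, an ETS transcription factor inside the triplicated segment, was at 8.15, 9.09 and 6.83 in wild type, at 25.6, 20.1 and 24.0 in Ts1Rhr and at 10.8, 16.5 and 19.2 in HMGN1_OE. It rose 2.34-fold as pooled (limma, adjusted p = 0.0163), with log2 1.54 in Ts1Rhr and 0.92 in HMGN1_OE, whose labels name no extra copy of it. The contrast between the genotypes was 0.62 for Erg (limma, adjusted p = 0.988). Of the 16 tested genes of the segment, Erg and Chaf1b were the called ones on normalised FPKM, and the list median relative to all genes was 0.47 in Ts1Rhr and -0.11 in HMGN1_OE.

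The largest rise by the rule for named genes was in Fgf13, an intracellular fibroblast growth factor family member that binds sodium channels. It was at 2.51, 3.48 and 2.11 in wild type, at 16.3, 13.9 and 11.9 in Ts1Rhr and at 6.05, 6.31 and 9.17 in HMGN1_OE (fold 3.75; log2 1.91, standard error 0.24; limma, adjusted p = 0.00115). The Ts1Rhr values were all above those of HMGN1_OE, which were all above wild type, while the contrast between the genotypes was 0.98 (limma, adjusted p = 0.988). Others among the 12 largest rises were Ccdc135 of the ciliary dynein regulatory complex (fold 2.90), the receptor tyrosine kinase adaptor Grb7 (2.66), the neurturin receptor Gfra2 (2.64), Tmem59l (2.63) and the glycine cleavage enzyme Gldc (2.55). All of them passed limma, with adjusted p from 0.00442 to 0.0308, and none of their mutant libraries reached the wild-type range.

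Hmga2, an architectural chromatin protein of fetal and stem cells, was among the genes with the smallest adjusted p in both tables. It stood at 9.50, 9.31 and 8.60 in wild type, at 1.69, 1.35 and 1.68 in Ts1Rhr and at 1.91, 2.25 and 2.17 in HMGN1_OE. The spread within each group was small beside the gap, and the fold was 0.199 (log2 -2.33, standard error 0.26; limma, adjusted p = 0.000732; raw log2 -2.55, adjusted p = 0.00049). The other 8 tested high mobility group genes were all higher, with log2 differences up to 0.99 for Hmgn5 and no call on normalised FPKM. Of the polycomb repressive complex 2 genes, 10 of 11 were higher and the methyltransferase gene Ezh2 rose on raw FPKM (log2 0.77; limma, adjusted p = 0.0444).

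Lipid synthesis genes held 4 members that rose among 30 tested, against 0.754% of all genes. Scd1, the desaturase that makes oleate, was at 16.8, 23.2 and 16.9 in wild type, at 45.8, 52.8 and 41.6 in Ts1Rhr and at 30.3, 27.2 and 32.1 in HMGN1_OE. All mutant libraries exceeded wild type and Ts1Rhr exceeded HMGN1_OE in each library, with a pooled fold of 1.99 (limma, adjusted p = 0.032). Its paralog Scd2, the fatty acid elongase Elovl6 and the desaturase Fads2 rose 1.99-fold, 2.24-fold and 2.54-fold (limma, adjusted p = 0.041, 0.0315 and 0.0395). Fads2 did not pass on raw FPKM (limma, adjusted p = 0.0618). The list had 28 members higher on normalised but 20 on raw FPKM, and a median of 0.20 relative to all genes. Its called members on normalised FPKM were 5 without HMGN1_OE replicate 1, 2 without Ts1Rhr replicate 3, 3 without WT replicate 2, and 0 without HMGN1_OE replicate 3, Ts1Rhr replicate 1, Ts1Rhr replicate 2, WT replicate 1 or WT replicate 3. Without HMGN1_OE replicate 1, 423 of all 10878 genes rose on normalised FPKM. On raw FPKM 3 members rose (0.91% of all genes). They were 7 without HMGN1_OE replicate 2, where 468 of all genes rose, and 0 without any 1 other library.

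Asns, asparagine synthetase, was the member of the 28 tested amino acid response genes that rose in both tables. It was at 24.5, 29.5 and 16.6 in wild type and between 37.5 and 54.3 in the mutants, with a median of 45.3 and no overlap (fold 1.97; limma, adjusted p = 0.0398). The serine synthesis gene Phgdh and the proline synthesis gene Aldh18a1 rose on raw FPKM (log2 0.82 and 0.72; limma, adjusted p = 0.0489 and 0.0444). All 38 tested MYC and ribosome biogenesis genes were higher on normalised FPKM and 33 on raw FPKM, by 0.24 and 0.28 relative to all genes at the median, and 0 were called in either table (limma). Car2, a carbonic anhydrase in the erythroid and megakaryocyte list, rose 2.09-fold (limma, adjusted p = 0.0343), beside globin genes at 0. Of the 3 tested members of that list, Vwf went the other way. Its log2 difference was -0.56 on normalised FPKM (limma, adjusted p = 0.225) and -0.74 on raw FPKM (limma, adjusted p = 0.045).

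Several groups lay near the median of all genes on normalised FPKM and had no called member in either table by limma. They were the proteasome (-0.12), mitochondrial ribosomal proteins (-0.02), RNA polymerase II and its elongation factors (0.09), interleukin-7 signalling (0.07), heat shock proteins (0.06), p53 targets (-0.02) and the type I interferon response (-0.06). On raw FPKM heat shock proteins lay at 0.18 and RNA polymerase II at 0.15, and the others between -0.06 and 0.04. Of the 19 tested heat shock genes 18 were higher in each table. The respiratory chain lay at -0.23 and glycolysis at -0.17, with 0 called. The immediate early genes lay lower, at -0.51, with 16 of 22 members lower and 0 called. Fos was at 156, 70.8 and 73.5 in wild type and from 20.0 to 131 in the mutants, where HMGN1_OE replicate 2 was the highest.

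**Figure D4:**
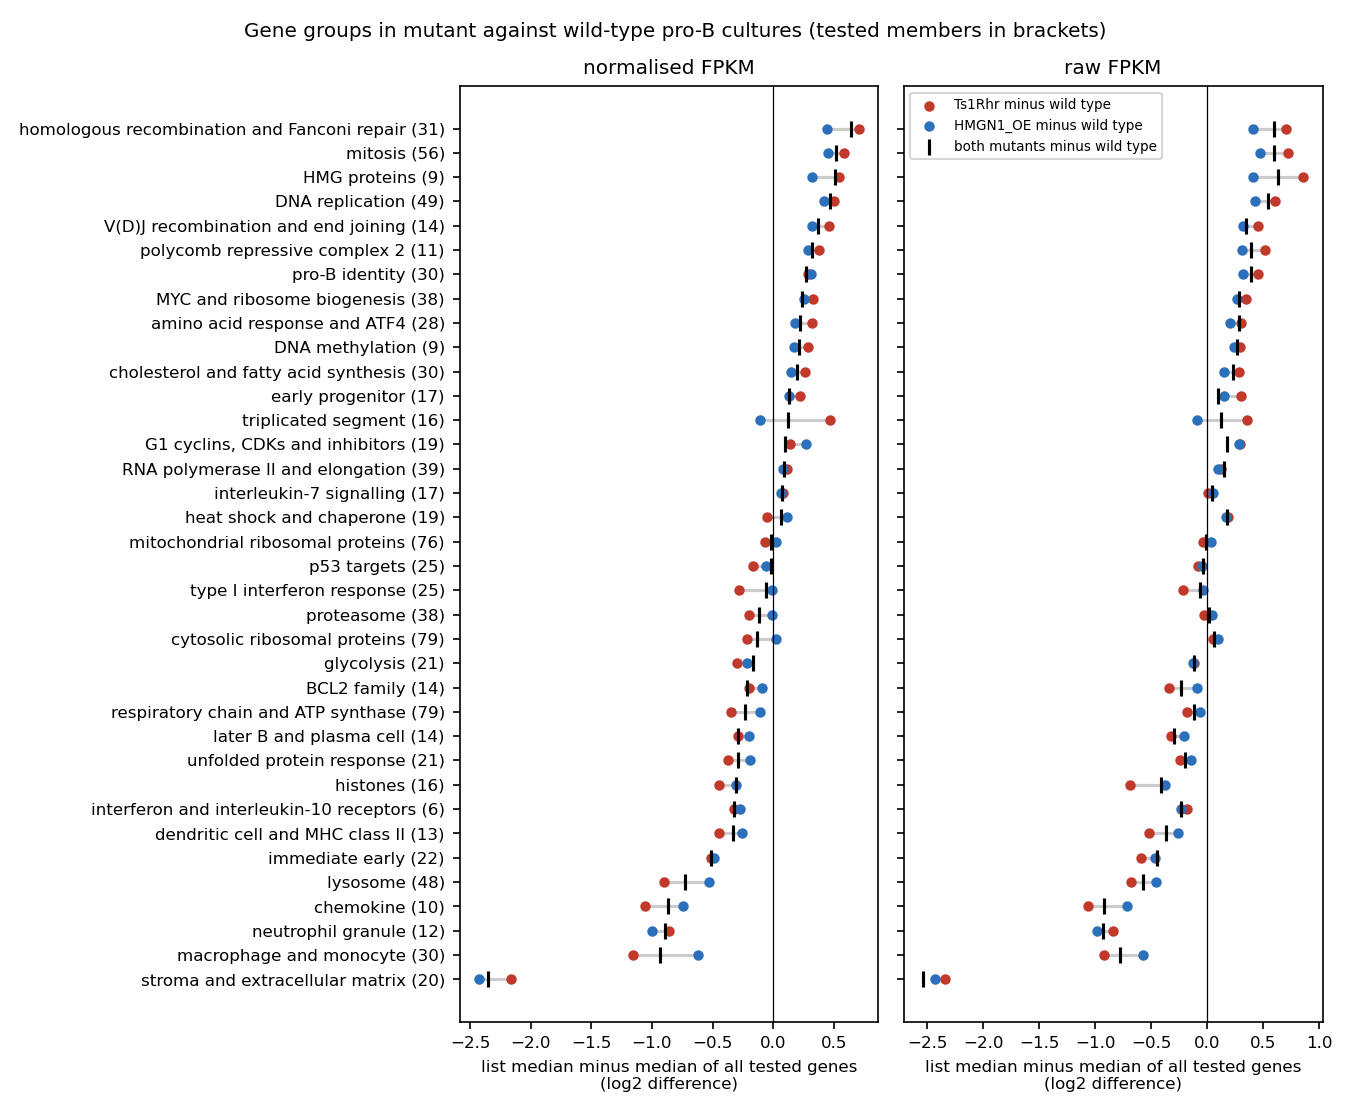
Median log2 difference from wild type of the gene lists shown minus that of all tested genes (x axis) for Ts1Rhr, HMGN1_OE and both pooled, on normalised and raw FPKM, with the number of tested members beside each list name. Of the lists plotted, stroma lies farthest down, at -2.35 pooled on normalised FPKM, and the repair list farthest up, at 0.64, and the genotypes, which share the wild-type libraries, lie on the same side of 0 for these lists and on opposite sides for the triplicated segment (0.47 in Ts1Rhr, -0.11 in HMGN1_OE).

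The amount of myeloid RNA moved with the comparison. The mean log2 level of the macrophage and neutrophil lists was 6.71, 5.98 and 5.80 in wild type, 5.46, 5.26 and 4.96 in Ts1Rhr and 5.33, 6.56 and 5.05 in HMGN1_OE, so 5 of 6 mutant libraries lay below wild type. With this score as a covariate, 0 genes were called on normalised FPKM (limma; 3175 at an unadjusted p under 0.05) and 2 on raw FPKM. The median absolute log2 of the 103 called differences on normalised FPKM went from 1.2 to 1.15, with the sign of all 103 kept and adjusted p (limma) from 0.052 to 0.127. These sizes are not relative to all genes, whose median difference went from 0.17 to 0.39 with the score. The median standard error went from 0.24 to 0.27. For the 184 raw calls outside the score, the median absolute size fell from 0.89 to 0.57. With the score, the normalised log2 difference of Sfrp2 was -4.24, of Sparc -3.09, of Hmga2 -2.27, of Igj -2.0, of Fgf13 1.84, of Ccne2 1.36, of Rag2 1.14 and of Dntt 1.28. By the median of its genes the stromal list lay lower in every mutant library than in every wild-type library. Its summed level overlapped, at 2661 to 14740 normalised FPKM in wild type and 1843 to 5552 in the mutants. The part of the stromal list in the other differences was not tested.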

How the data were processed

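Poly(A) RNA of 9 pro-B cultures was sequenced from TruSeq libraries. The authors deposited 2 tables of FPKM, raw and spike-in normalised, each library in 1 column. Per the submitters' processing notes, the tools and build included HISAT, Cufflinks 2.0.0 and mm9. The sources used here do not describe the spike-in normalisation. The files hold no counts, so the depth behind each value is unknown and no counting interval is given. Genes above 0 numbered 13023 to 14358 per library.

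Of 23398 rows, 92 spike-in and 27 date-named rows were left out, and genes whose raw FPKM averaged 1 or more were kept. log2(normalised FPKM) and log2(raw FPKM + 0.1) were fitted with limma 3.58.1 (R 4.3.3) with 3 group means and a mean-variance trend. The contrast was the mean of both mutant groups minus wild type, two-sided, with Benjamini-Hochberg adjustment over all 10878 genes and a threshold of 0.05. Fold changes are on these scales, and the pseudocount understates those of low genes on raw FPKM. Library medians were compared by an exact permutation test. The fit was tested on simulated data.

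Named genes were the 12 largest rises and falls among called genes with a mean normalised FPKM of at least 5 and no overlap in either table (7 falls qualified), up to 4 called or else 3 uncalled genes per list, and Hmgn1, Lyz2, Xist and Ddx3y. Some genes that this rule names are not reported here. Others are marked as chosen after their values were seen or stand as list members beside them. The members and the 41 lists were chosen with earlier results of these data known; 4 listed symbols were not matched. Alternatives covered the scaling, filter, pseudocount, trend, a myeloid score as covariate, 2 groups in place of 3, the replicate number as a block and each library left out. The block was an alternative because the labels do not say that equal numbers mark a shared animal or day.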

Additional observations from a re-analysis of the deposited data

Results flagged for a closer look

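Among 111 named genes, 13 had a highest or lowest mutant library set apart from the other 5 by more than Dixon's limit, on normalised FPKM; chance flags about 1 in 20 groups. HMGN1_OE replicate 1 was the low library for the neurturin receptor Gfra2 (7.47), the transcription factor Tcf4 (35.4), the mismatch repair gene Msh6 (72.8), the DNA methyltransferase Dnmt3b (1.71) and the cytotoxic granule gene Nkg7 (0.541), and the high library for the nucleolar gene Nop58 (171). HMGN1_OE replicate 2, with the most myeloid RNA of the mutants, was the high library for the lysosomal enzyme Gla (50.6) and the kinase Plk2 (107). Ts1Rhr replicate 3 was high for Tmem59l (84.8) and set apart for Xist (0.493) and the Y-linked genes Ddx3y (41.0) and Eif2s3y (69.4). HMGN1_OE replicate 3 was high for the small nucleolar RNA Snora74a (7.02). Of these genes Gfra2, Tmem59l and Snora74a were called against wild type in both tables, and Msh6 and Gla on raw FPKM alone.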

How the results depend on the processing

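The called genes numbered 9 to 454 on normalised FPKM (main 103) and 3 to 1104 on raw FPKM (main 185) with 1 library left out. With the myeloid score as a covariate they numbered 0 and 2, and without a filter 49 and 119. On raw FPKM they were 286 with a filter at 5 FPKM, 46 without the trend, 65 with 1 spike-in factor per library (42 higher, 23 lower) and 48 with the mutants as 1 group. Shifting libraries to equal medians gave 33 higher and 42 lower against 82 and 21. The cause of these moves was not tested, except that fewer or more genes were tested under another filter. Of the 40 named genes called on normalised FPKM, between 8 and 40 kept their call with 1 library left out, 20 with equal medians and 18 without the trend; none of the 40 changed direction in the alternatives computed gene by gene. Ts1Rhr minus HMGN1_OE called 0 named genes, and 0 to 1 with a library left out (1 without Ts1Rhr replicate 3). By the log2 of summed values the global difference was -0.18 against 0.17.

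Correlations of the deviations of same-numbered libraries from their group means ran from -0.133 to 0.156. Differently numbered libraries were not compared, so these values cannot show whether equal numbers share an animal or day. With the replicate block 107 genes were called on normalised and 11 on raw FPKM, against 103 and 185 without it.

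Uncalled genes that changed sign with the myeloid score were, on normalised FPKM, Psmb6 (0.05), Edem1 (0.15), Fosb (0.02), Ifngr1 (0.18), Ifngr2 (0.30), Bcl2a1b (0.29) and Mcl1 (0.01). On raw FPKM they were Tcf4 (-0.04), Lck (-0.25), Myc (-0.09), Mrps25 (-0.00), Psmd3 (-0.03), Edem1 (0.02), Fos (0.30), Fosb (0.22), Ifngr2 (0.08), Bmf (-0.22), Bcl2a1b (0.37), Xist (0.30) and Ddx3y (-0.02). With 1 library left out, Thy1 ran from -0.09 to 0.64 on normalised and -0.20 to 0.36 on raw FPKM, Ifngr2 from -0.35 to 0.03 on normalised FPKM, and Xist from -1.74 to 0.40 and -1.77 to 0.35. The cause was not tested.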
